A study of Mus musculus with 2 samples.

Results

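The tumour necrosis factor (TNF) superfamily was followed in TR1 cells, the type 1 regulatory T cells that secrete IL-10, from the small intestine of mice. Members were all genes whose official symbol begins with Tnfsf (ligands) or Tnfrsf (receptors) followed by a number and that had a probe set annotated to that gene alone. This rule, which used no measured value, gave 29 of the 19937 genes on the array, namely 9 ligands and 20 receptors, each with 1 probe set. The impaired sample carried the CD4-DNIL-10R transgene, a dominant-negative IL-10 receptor under Cd4 regulatory sequence, which is active in T cells (background, not measured here). The wildtype sample carried no such transgene. All mice had received 2 intraperitoneal injections of 15 μg anti-CD3 (clone 2C11) on alternate days and were killed 4 or 48 hours after the second. The labels do not tie either time to a sample, and neither the number of mice pooled nor the sort is stated in them.

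TNF superfamily ligands are mostly trimeric proteins on the cell surface or shed from it, and their receptors carry cysteine-rich domains outside the cell. Receptors with a death domain can recruit FADD and caspase-8, whereas the co-stimulatory receptors of T cells bind TRAF adaptors and turn on NF-kB. Activated T cells carry both sides of several pairs, including OX40, GITR, CD137, CD30 and TNFR2 among the receptors, and in the intestine the family also acts on epithelium, B cell help and lymphoid tissue.

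One array was made per genotype, so no difference had a replicate error and none was tested. Values are log2 RMA expression, a background-corrected and between-array normalized probe brightness, and differences are impaired minus wildtype. A probe set counted as past the floor when its mean over both arrays was at least 6.91, the median of all probe sets. Across the 10754 genes past the floor the median difference was -0.002, and the middle 95% of differences lay between -0.49 and 0.85. Il10ra, whose product the transgene mimics, measured 12.30 in the impaired sample and 9.92 in the wildtype sample, differing by 2.38. Its probe set could not tell the transgene from the endogenous gene. General T cell markers had a median difference of -0.01 over 12 genes, and Il10 itself differed by -0.02. Il10, Lag3, Cd4 and Cd3e, which define TR1 cells and T cells, were past the floor on both arrays, and so were all 18 enterocyte markers, which were brighter in the impaired sample. Pancreatic acinar markers were dimmer there for 10 of 11 genes (median -1.44), while 49.4% of genes past the floor had a difference above 0. The marker lists were chosen with earlier results of these data known. Cd8a and Trgv1, listed as markers of CD8 and gamma-delta T cells, were bright on both arrays too. Cd8a measured 11.42 in the impaired sample and 12.12 in the wildtype sample, and Trgv1 12.71 in the impaired sample and 13.11 in the wildtype sample. The purity of the samples was not tested.

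No family member differed by 2-fold in either direction. The 29 differences ran from -0.605 to 0.66, and their median was 0.13. Ligands and receptors lay on opposite sides of 0 for the most part. Of the 9 ligands 7 were dimmer in the impaired sample (median -0.255), among them Tnfsf13b at -0.01, whose sign turned under loess centring. Of the 20 receptors 18 were brighter (median 0.15), among them Tnfrsf22 at 0.04, whose sign turned too. Over all genes 51.5% had a difference above 0 and the median was 0.01. The scaled median absolute deviation of differences over genes past the floor was 0.245, larger than the receptor median. Past the floor stood 19 members, of which 5 of 6 ligands were dimmer (median -0.27) and 11 of 13 receptors brighter (median 0.16), against 49.4% of genes above 0. The 0 members at least 2-fold brighter and the 0 at least 2-fold dimmer stood against 1.41% and 0.158% of genes past the floor. At 1.5-fold, 1 member was brighter and 2 were dimmer, against 5.55% and 1.26% of genes. With a stricter floor of 8.86, the 75th percentile over probe sets, 4 of the 6 receptors left were brighter and the median of their differences was 0.04, the 2 ligands left were both dimmer, and 39.98% of genes lay above 0. The member nearest the floor from below was Tnfrsf11a, with a mean of 6.84, and the nearest above it was Tnfrsf10b, at 7.20.

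**Figure D1:**
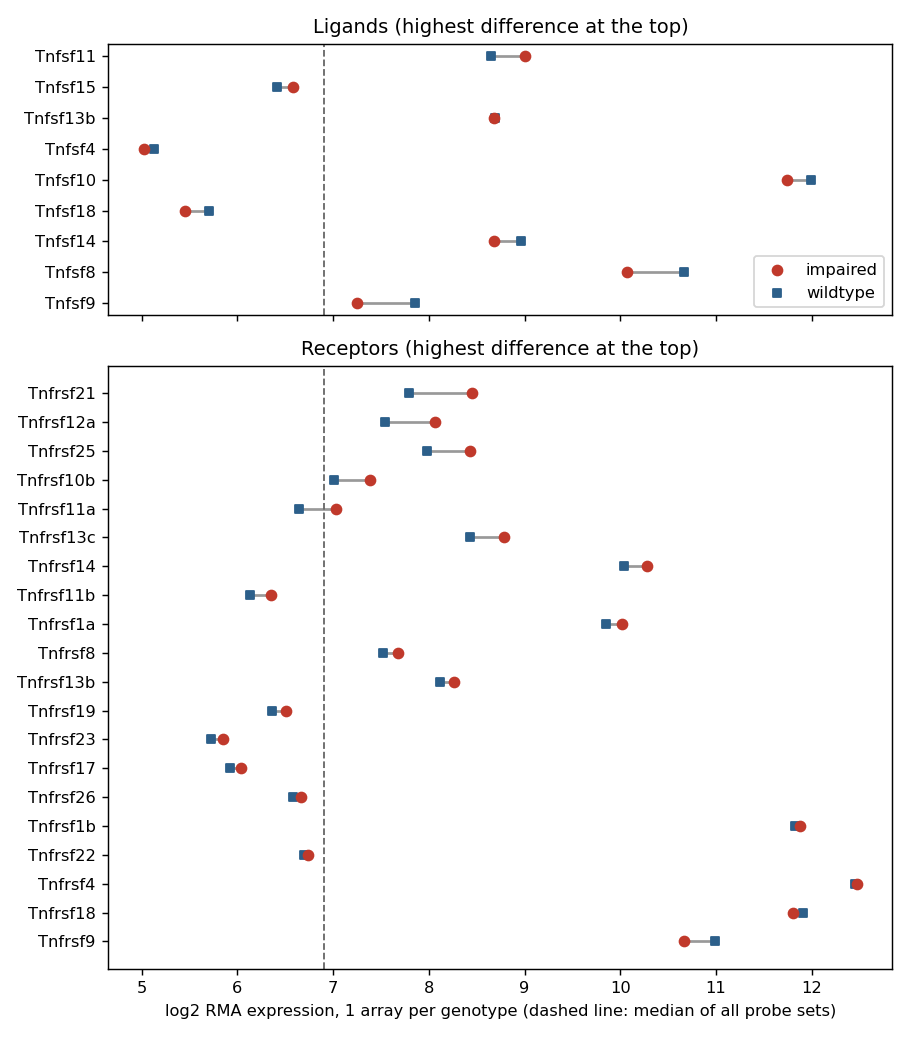
Log2 RMA expression (x axis) of each of the 9 ligand and 20 receptor genes (rows) in the impaired sample (red circles) and the wildtype sample (blue squares), 1 array each, with the median of all probe sets as a dashed line. Red lies left of blue for 7 ligands and right of blue for 18 receptors (Tnfsf13b and Tnfrsf22, both near 0, change side under loess centring), and the widest gaps are those of Tnfrsf21 (0.66) and Tnfsf9 (-0.605).

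The ligands with the largest differences were those of CD137 and CD30. Tnfsf9, the CD137 ligand, which antigen-presenting cells are best known to carry, measured 7.245 in the impaired sample and 7.85 in the wildtype sample, differing by -0.605 (1.52-fold), and 1.004% of genes past the floor had a lower one. Tnfsf8, the CD30 ligand of activated T cells, measured 10.07 in the impaired sample and 10.66 in the wildtype sample, differing by -0.59 (1.51-fold), with 1.19% of genes lower. Both lay near the low end of all differences on these arrays and within 2-fold. A pair of T cell effector ligands were dimmer by less. Tnfsf14 (LIGHT), which engages HVEM and the lymphotoxin beta receptor, measured 8.68 in the impaired sample and 8.97 in the wildtype sample (-0.28). Tnfsf10 (TRAIL), a ligand that triggers apoptosis, measured 11.74 in the impaired sample and 12.00 in the wildtype sample (-0.255).

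The remaining ligands past the floor were level or brighter. Tnfsf13b (BAFF), a survival factor for B cells, was nearly equal, at 8.68 in the impaired sample and 8.69 in the wildtype sample (-0.01). Tnfsf11 (RANKL), the osteoclast factor that also drives M cell formation over gut lymphoid tissue, was the only ligand past the floor that was brighter, at 9.01 in the impaired sample and 8.65 in the wildtype sample (0.36). The 3 ligands below the floor are made mainly by antigen-presenting, endothelial or other non-T cells. Tnfsf4 (OX40 ligand) measured 5.02 in the impaired sample and 5.13 in the wildtype sample, differing by -0.10. Tnfsf18 (GITR ligand) read 5.45 in the impaired array and 5.71 in the wildtype array (-0.26), and Tnfsf15 (TL1A) 6.58 in the impaired array and 6.42 in the wildtype array (0.17). RMA can compress differences at such low signal, but dimmer genes were not scarcer there. Of the 9183 genes below the floor 117 were 1.5-fold brighter and 223 dimmer, against 597 and 135 of the 10754 past it. A further probe set names Tnfsf12 and Tnfsf13 (TWEAK and APRIL) together with their read-through gene, so these ligands have no value of their own here.

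Of the co-stimulatory receptors by which regulatory and activated T cells are known, Tnfrsf4, Tnfrsf18 and Tnfrsf1b were bright and close to equal in both samples. Tnfrsf4 (OX40) measured 12.47 in the impaired sample and 12.45 in the wildtype sample (0.02). Tnfrsf18 (GITR) measured 11.80 in the impaired sample and 11.91 in the wildtype sample (-0.105). Tnfrsf1b, which encodes TNFR2, the TNF receptor of regulatory T cells, measured 11.88 in the impaired sample and 11.83 in the wildtype sample (0.05). Their differences sit in the middle of all genes, with 33.5% to 59.1% of genes past the floor lower. Tnfrsf9 (CD137) stood out from them as the lowest receptor, at 10.67 in the impaired sample and 10.985 in the wildtype sample (-0.31), with 9.83% of genes lower. Tnfrsf8 (CD30) measured 7.68 in the impaired sample and 7.52 in the wildtype sample (0.16).

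Other receptors that lymphocytes carry were a little brighter in the impaired sample. Tnfrsf14 (HVEM), which binds LIGHT and the inhibitory receptor BTLA, measured 10.28 in the impaired sample and 10.035 in the wildtype sample (0.24). Tnfrsf25 (DR3), the death domain receptor of T cells for TL1A, measured 8.425 in the impaired sample and 7.98 in the wildtype sample (0.44), the highest of the T cell co-stimulatory receptors. Tnfrsf13c, the BAFF receptor of B cells, measured 8.78 in the impaired sample and 8.43 in the wildtype sample (0.355). The other BAFF-binding receptors were closer to equal. Tnfrsf13b (TACI) measured 8.26 in the impaired sample and 8.115 in the wildtype sample (0.145), and Tnfrsf17 (BCMA), a plasma cell receptor, lay below the floor, at 6.04 in the impaired array and 5.92 in the wildtype array (0.12). B cell markers were brighter in the impaired sample for 10 of 11 genes (median 0.34), with a log2 summed signal of 11.55 in the impaired sample and 11.27 in the wildtype sample, while their defining genes Ms4a1, Cd79a and Pax5 lay below the floor in both. Their part in the receptor values was not tested.

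Both of the highest differences belonged to receptors that are not particular to lymphocytes. Tnfrsf21 (DR6), a death domain receptor, measured 8.45 in the impaired sample and 7.79 in the wildtype sample, differing by 0.66 (1.58-fold), with 95.6% of genes past the floor lower. Tnfrsf12a (Fn14), the TWEAK receptor induced in injured epithelium, measured 8.06 in the impaired sample and 7.54 in the wildtype sample (0.53). Tnfrsf10b, which encodes the mouse death receptor for TRAIL, measured 7.39 in the impaired sample and 7.01 in the wildtype sample (0.38). These genes are expressed in many cell types, and the array does not show which cells gave the signal. Tnfrsf1a (TNFR1), the widely expressed TNF receptor, measured 10.02 in the impaired sample and 9.85 in the wildtype sample (0.16). Enterocyte markers were brighter in the impaired sample for 18 of 18 genes (median 1.005), with a log2 summed signal of 15.4 in the impaired sample and 14.6 in the wildtype sample. Goblet and Paneth cell markers were brighter for 10 of 10 genes (median 0.88), with a log2 summed signal of 15.5 in the impaired sample and 14.8 in the wildtype sample. Neutrophil markers were brighter for 11 of 13 genes (median 1.61), with a log2 summed signal of 12.8 in the impaired sample and 11.2 in the wildtype sample; the granule genes Elane (-0.04) and Mpo (-0.08) lay below the floor and were not brighter, and Mmp8 and Ltf passed it only by their impaired values. Macrophage and monocyte markers were brighter for 11 of 12 genes (median 0.21), with Lyz2 at 1.78 and Tyrobp at 1.03, and a log2 summed signal of 12.0 in the impaired sample and 12.0 in the wildtype sample. Cybb, the brightest of these markers, was dimmer in the impaired sample (-0.55), and Cd68 was nearly equal (0.09). Only 5 of the 12 were past the floor, and Csf1r, Adgre1 and Fcgr1 were below it. Markers of FOXP3 regulatory T cells were brighter for 8 of 9 genes (median 0.18), with Capg at 0.63, Izumo1r at 0.54 and Foxp3 at 0.04, and a log2 summed signal of 13.0 in the impaired sample and 12.7 in the wildtype sample. Il2ra, the brightest of this list, differed by 0.34, and Ikzf2 was dimmer (-0.21). Over all genes 51.5% had a difference above 0. Every family difference was smaller than the epithelial and neutrophil medians, and the part of any of these cells in the family's values was not tested. In a bulk sample, fewer cells of a type and less RNA per cell cannot be told apart.

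Receptors below the floor were all brighter in the impaired sample, though the sign of Tnfrsf22 turned under loess centring. Of all 9183 genes below the floor, 4962 had a difference above 0, and the median was 0.02. Tnfrsf11a was below the floor by its mean but above it by its impaired value. Tnfrsf11a (RANK) measured 7.025 in the impaired sample and 6.65 in the wildtype sample (0.38), and Tnfrsf11b (osteoprotegerin), the soluble decoy for RANKL, 6.35 in the impaired array and 6.13 in the wildtype array (0.22). Tnfrsf19 (TROY), known from intestinal stem cells, differed by 0.14. The decoy TRAIL receptors Tnfrsf22 and Tnfrsf23 and their neighbour Tnfrsf26 differed by 0.04, 0.13 and 0.08. These last genes are close paralogs, so probes may read more than one of them.

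**Figure D2:**
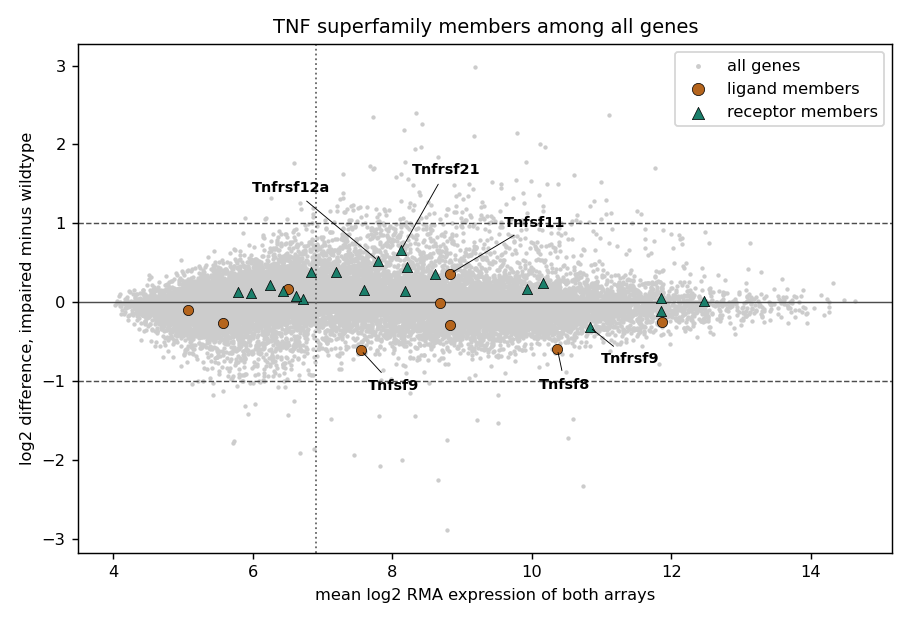
Log2 difference, impaired minus wildtype (y axis), against the mean log2 RMA expression of both arrays (x axis) for all 19937 genes (grey), ligand members (orange circles) and receptor members (green triangles). The dashed lines mark 2-fold and the dotted line the floor of 6.91. All 29 members lie between the dashed lines.

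Receptors were then paired with their ligands. Genes of the family that go by other symbols were included for this, namely Tnf, Lta, Ltb, Fasl, Cd40lg, Cd70 and Eda as ligands and Fas, Cd40, Cd27, Ltbr, Ngfr, Edar, Eda2r and Relt as receptors. Of the 30 ligand-receptor pairs listed, 27 had a value on both sides and 12 had both sides past the floor. In 9 of these 12 the ligand was dimmer and the receptor brighter in the impaired sample, in 2 both were brighter, in 1 both were dimmer, and in 0 was the ligand brighter and the receptor dimmer. The 9 include both pairs of Tnfsf13b, whose sign turned under loess centring. The 12 pairs are not independent, since they hold 9 ligands and 11 receptors. Past the floor, 7 of 10 ligands were dimmer and 16 of 19 receptors brighter, against 49.4% of genes above 0. The pair count largely repeats these counts and does not show a link between a ligand and its receptor.

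Among the 12 pairs, the CD137 pair was the one in which both sides were dimmer, with Tnfsf9 at -0.605 and Tnfrsf9 at -0.31. The CD30 pair had the widest gap past the floor, with the ligand at -0.59 and the receptor at 0.16. TRAIL and its death receptor stood at -0.255 and 0.38, and LIGHT and HVEM at -0.28 and 0.24. Among ligands of other symbols past the floor, Tnf and Fasl were dimmer and Ltb and Cd40lg brighter. Tnf, the founding member, measured 10.03 in the impaired sample and 10.41 in the wildtype sample (-0.38), with its receptors Tnfrsf1a and Tnfrsf1b at 0.16 and 0.05. Fasl, the ligand of cytotoxic T cells, measured 10.90 in the impaired sample and 11.21 in the wildtype sample (-0.31), and its receptor Fas 8.02 in the impaired sample and 7.76 in the wildtype sample (0.25). Markers of CD8 and gamma-delta T cells, which also make such effector ligands, were dimmer in the impaired sample for 3 of the 4 genes with a value (median -0.24), with a log2 summed signal of 13.4 in the impaired sample and 13.8 in the wildtype sample. All 4 were past the floor on both arrays, with Cd8a at -0.70 and Trgv1 at -0.40, while Sox13 was brighter (0.24). The part of these cells in the ligand values was not tested.

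Both sides were brighter in the lymphotoxin beta and CD40 pairs, although Cd40 was past the floor only by its impaired value. Ltb, a membrane-anchored lymphotoxin that organises lymphoid tissue, measured 9.30 in the impaired sample and 8.84 in the wildtype sample (0.46), and its receptor Ltbr 7.87 in the impaired array and 7.67 in the wildtype array (0.195). Cd40lg, by which helper T cells stimulate B cells, measured 10.25 in the impaired sample and 10.05 in the wildtype sample (0.20). Cd40 itself measured 7.12 in the impaired sample and 6.79 in the wildtype sample (0.33), which is below the floor in the wildtype sample. Other pairs had one side below the floor. The OX40, GITR and CD27 receptors were bright whereas Tnfsf4, Tnfsf18 and Cd70 lay below the floor in both samples. Cd27, a co-stimulatory receptor of naive and memory T cells, measured 11.815 in the impaired sample and 11.72 in the wildtype sample (0.10), and Cd70 differed by -0.15. RANKL and RANK were both brighter, at 0.36 and 0.38, and so were TL1A and DR3, at 0.17 and 0.44, although Tnfrsf11a and Tnfsf15 lay below the floor. The GITR pair was dimmer on both sides, at -0.26 and -0.105, with its ligand below the floor.

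Of the remaining genes of other symbols, Lta differed by 0.255, Eda by -0.36, Edar by 0.14 and Eda2r by 0.045, all 4 below the floor. Ngfr was nearly equal (0.02) and Relt, an orphan receptor, was dimmer (-0.28). With both kinds of symbol together, 7 of 10 ligands past the floor were dimmer (median -0.27) and 16 of 19 receptors brighter (median 0.16), Cd40 among them.

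**Figure D3:**
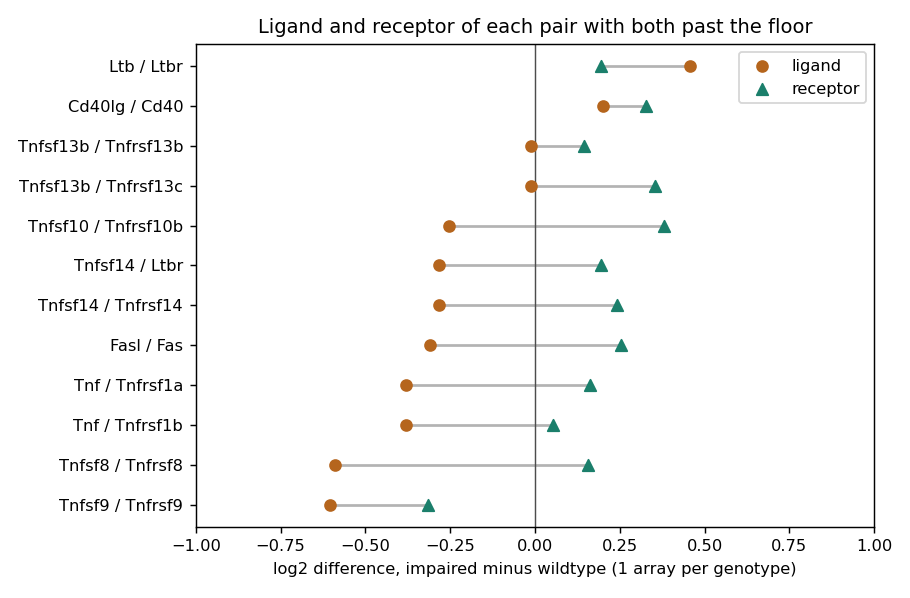
Log2 difference, impaired minus wildtype (x axis), of the ligand (orange circle) and the receptor (green triangle) for each of the 12 pairs with both sides past the floor (rows). The line joins the sides of a pair, and it crosses 0 from a dimmer ligand to a brighter receptor in 9 pairs, of which the 2 of Tnfsf13b change under loess centring.

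Several of these genes lie side by side in the genome, and the order of protein-coding genes in RefSeq's GRCm38.p6 annotation was used to group them. On chromosome 1, Tnfsf4, Tnfsf18 and Fasl follow each other with 0 genes between, and their differences were -0.10, -0.26 and -0.31. On chromosome 17, Tnfsf9, Cd70 and Tnfsf14 do the same, at -0.605, -0.15 and -0.28. All 6 of these neighbouring ligands were dimmer in the impaired sample, 3 of them from below the floor. Of all 16 ligands with a value, under both kinds of symbol, 11 were dimmer, and over all genes 51.5% had a difference above 0. The count of neighbours thus largely repeats the count of ligands. Neighbours did not always share a side. Ltb, Tnf and Lta, also adjacent on chromosome 17, stood at 0.46, -0.38 and 0.255, and Tnfsf15 and Tnfsf8 on chromosome 4 at 0.17 and -0.59. The adjacent receptors Tnfrsf4 and Tnfrsf18 on chromosome 4 differed by 0.02 and -0.105, and Tnfrsf1b and Tnfrsf8 by 0.05 and 0.16.

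The bases before the start site are shown for the 2 lowest and the 2 highest members past the floor whose RefSeq promoter window begins at the outermost annotated start. Tnfsf9 and Tnfsf8, the lowest of all, had no such window. The dimmer genes shown, Tnfrsf9 and Tnfsf14, had 9.83% and 12.5% of genes past the floor lower, so they are not the low extreme. Motifs searched were those of NF-kB, AP-1 and NFAT, the factors that T cell receptor signals act through. Promoter activity was not measured on the array. Each run holds the 250 bases upstream of the start, 5′ to 3′ on the gene's strand (RefSeq, GRCm38.p6), and capitals mark the AP-1 motif TGANTCA and the NFAT core GGAAA, searched on both strands. The kappa-B motif GGANTTTCC, which on its 3′ side overlaps an NFAT core read on the other strand, was searched in the same way.
Tnfrsf9, chr4:150919905-150920154, plus strand: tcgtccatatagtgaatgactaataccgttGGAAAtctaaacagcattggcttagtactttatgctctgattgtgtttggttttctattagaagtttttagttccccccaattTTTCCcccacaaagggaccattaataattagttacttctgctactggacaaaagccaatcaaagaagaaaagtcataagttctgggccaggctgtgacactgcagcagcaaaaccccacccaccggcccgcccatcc
Tnfsf14, chr17:57194182-57194431, minus strand: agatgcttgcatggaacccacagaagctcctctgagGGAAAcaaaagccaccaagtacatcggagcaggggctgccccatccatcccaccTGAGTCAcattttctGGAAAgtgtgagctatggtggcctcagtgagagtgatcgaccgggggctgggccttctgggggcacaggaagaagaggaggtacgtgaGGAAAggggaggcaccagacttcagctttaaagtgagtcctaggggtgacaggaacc
Tnfrsf21, chr17:43016305-43016554, plus strand: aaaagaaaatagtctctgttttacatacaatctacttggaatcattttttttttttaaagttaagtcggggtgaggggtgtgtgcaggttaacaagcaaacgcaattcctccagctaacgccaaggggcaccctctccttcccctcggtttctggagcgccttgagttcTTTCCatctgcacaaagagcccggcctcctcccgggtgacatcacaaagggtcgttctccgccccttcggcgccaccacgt
Tnfrsf12a, chr17:23677450-23677699, minus strand: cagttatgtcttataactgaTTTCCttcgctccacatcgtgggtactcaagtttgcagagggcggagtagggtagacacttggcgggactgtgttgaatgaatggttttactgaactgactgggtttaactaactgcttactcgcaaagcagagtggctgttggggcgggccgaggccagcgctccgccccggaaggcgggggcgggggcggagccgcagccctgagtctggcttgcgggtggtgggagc

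The pair of dimmer genes held 2 (Tnfrsf9) and 3 (Tnfsf14) NFAT cores, and Tnfsf14 also held TGAGTCA, 160 bases before its start. Tnfrsf9 has a further annotated start, not printed, whose window holds the AP-1 motif. Each of the brighter genes held 1 NFAT core. Of the 29 members 23 had a window in the table, 27 windows in all. The NFAT core was in 22 of these 27 windows and in 55.6% of all 32841 windows of this length, and the AP-1 motif was in 4 of 27 and in 6.75%. The kappa-B motif was in 0 of 27 and in 1.07%. These matches describe letters and not bound sites.

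Genes that act downstream of the receptors were described by 2 lists. Of 38 adaptor and signalling genes 34 had a value, all past the floor, with 13 brighter and 21 dimmer in the impaired sample, a median of -0.04 and 0 at 1.5-fold in either direction, against 5.55% of genes past the floor brighter and 1.26% dimmer by that much. The largest differences of that list were those of Adam17, the protease that sheds TNF and its receptors (-0.39), Birc2, a ubiquitin ligase of the TNF receptor complex (-0.37), Map3k5, a stress kinase (-0.36), and Tab1, a partner of the kinase TAK1 (0.35). Over all genes past the floor 49.4% had a difference above 0. Of the 20 NF-kB and TNF response genes 16 were past the floor, with 12 brighter, 4 dimmer, 0 at 1.5-fold in either direction and a median of 0.10. Among those past the floor the largest differences were those of Ier3, an immediate early gene (0.57), Tnfaip8l2, a brake on lymphocyte activation (0.36), Tnip2, an inhibitor of NF-kB signalling (-0.27), and Nfkbie, an inhibitor of NF-kB (0.26). Tnfaip3, which encodes the ubiquitin editor A20 and was picked for naming with its value known, measured 12.17 in the impaired sample and 12.16 in the wildtype sample. Ier3 is also expressed in epithelium and neutrophils, whose markers were brighter in the impaired sample as given above. The part of these cells in the Ier3 value was not tested. Tnfaip2, a TNF-induced gene, had the largest difference of the response list, at 7.01 in the impaired sample and 6.18 in the wildtype sample (0.83). Its mean lay below the floor, and it too was picked for naming with its value known. Birc2 had a second probe set that differed by 0.02.

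**Figure D4:**
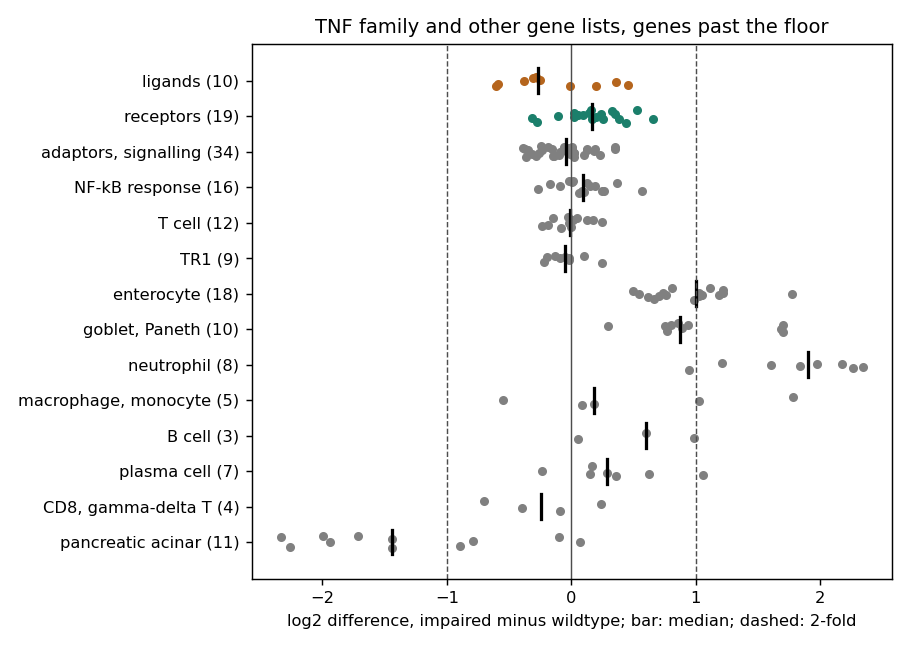
Log2 difference, impaired minus wildtype (x axis), of genes past the floor in each list (rows, with the number of genes), each point 1 gene and each bar the median. Family ligands (median -0.27) and receptors (0.16), with both kinds of symbol, lie close to 0 beside enterocyte (1.005) and neutrophil markers (1.90), and dashed lines mark 2-fold. Over all 13 neutrophil markers, with those below the floor, the median was 1.61. Some genes passed the floor by 1 array only, among them Mmp8, Ltf, Ang4 and Itln1 by the impaired value and Try10 by the wildtype value.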

How the data were processed

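RNA from 2 samples was hybridised to 1 Affymetrix array each. Per the submitters' processing notes the authors used affy and RMA, and the log2 values in the deposited table cover 34760 probe sets, from 3.84 to 14.7 in the impaired and 3.86 to 14.6 in the wildtype sample, not centred per gene. No version or genome build is stated there, and no detection call was used. Probe sets were named through GEO's platform annotation: 21640 had 1 symbol, 1321 several and 11799 were not listed. A gene with several probe sets took the one with the highest mean. All 29 members matched RefSeq (GRCm38.p6) by Entrez identifier with 0 symbols changed.

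With 1 array per genotype there was no test and no p-value, and the number of arrays limits the precision. Genes were counted at 2-fold and 1.5-fold and described by medians. Every member and every family gene of another symbol is named, with the 4 largest absolute differences of each downstream list among genes past the floor; Tnfaip3 and Tnfaip2 are named beside that rule. Members and lists were chosen with earlier results of these data known. Counting was tested on simulated data. Alternatives were loess centring (fraction 0.3), averaging the probe sets of a gene, adding 32 to linear signal, a floor on the brighter array, a floor at the 75th percentile and none. Software was statsmodels 0.14.6, pandas 2.3.3, numpy 2.4.6, matplotlib 3.10.9 and Python 3.11.15.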

Additional observations from a re-analysis of the deposited data

How the results depend on the processing

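The 0 members at 2-fold in either direction, and the signs of the ligand median and the receptor median, were the same under all 6 alternatives. Much of this was fixed in advance. Each member has 1 probe set, so averaging probe sets moved no value, and the offset can only shrink a difference. No choice of floor could add a member at 2-fold, since none of the 29 reached it. Only loess centring could have changed the 2-fold counts. The ligand median ranged from -0.42 (2 members, floor at the 75th percentile) to -0.225 (loess centring) and the receptor median from 0.04 (6 members, same floor) to 0.225 (loess centring). With that floor, which leaves 8 members, the median of all members became -0.043, against 0.145, and 0 members were 1.5-fold brighter and 1 was 1.5-fold dimmer, against 1 and 2. The count 1.5-fold dimmer was also 1 after loess centring and 0 with the offset of 32, because Tnfsf8 (-0.53 with loess, -0.58 with the offset) and Tnfsf9 (-0.52 with the offset) moved just inside the threshold of 0.585. Loess centring turned the sign of Tnfrsf22 and Tnfsf13b, whose differences were 0.04 and -0.01, and otherwise moved the members by at most 0.065. The offset moved the members by at most 0.104 and by its form cannot turn a sign. No paired analysis was possible because each genotype has 1 array. Low signal limits the members below the floor, where RMA can compress differences, though 1.5-fold dimmer genes were not scarcer there.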
